A study of Mus musculus with 22 samples.

Results

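The genes described here are 9 members of the FOXO and PI3K-AKT axis in mouse TH2 cells: the forkhead factors Foxo4, Foxo1, Foxo3 and Foxp1, the inhibitors of the pathway Inpp5d and Pik3ip1, and the kinases Akt1, Akt2 and Sgk1. They were found by symbol among the 49671 genes of the count table, and all 9 were among the 11905 genes that passed the filter on low counts. The members were chosen with their measured difference between calcitriol and vehicle in view, so that difference is given here as a description and carries no p-value. As a group they are not all inhibitors of AKT, since Akt1, Akt2 and Sgk1 are the kinases themselves. The clearest difference was in Foxo4, which averaged 134.3 ± 8.92 CPM (a gene's counts after TMM scaling of library depth) in calcitriol libraries and 31.63 ± 3.78 CPM in vehicle libraries (SD, n = 11 each). Sgk1, Foxo1 and Inpp5d were higher by 1.70-fold, 1.24-fold and 1.23-fold in calcitriol libraries, while Foxo3, Foxp1, Akt1 and Akt2 had log2 changes between 0.02 and 0.07.

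The calcitriol group was 11 libraries of wild-type TH2 cells given calcitriol, the active hormone made from vitamin D3, at 100 nM over the last 24 hours before harvest on day 5. The vehicle group was 11 libraries of wild-type TH2 cells given the solvent, 2% ethanol. The replicate numbers used below follow the order of the samples and are not from the labels, so equal numbers need not mark matched libraries. All cells came from Balb/c mice. The parent mice, of both sexes, were obtained at 6 to 8 weeks of age, and the colony was bred for 2 generations on chow with 400, 1000 or 4000 IU/kg of vitamin D3. The mouse, diet and culture of a library are not given in the labels, nor is the ethanol content of the calcitriol cultures, so p-values measure the spread between libraries, which may be partly technical.

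FOXO proteins are transcription factors of resting and long-lived T cells. When a growth factor or antigen receptor engages PI3K, the lipid PIP3 accumulates at the membrane and recruits PDK1 and AKT. AKT and the related kinase SGK1 then phosphorylate FOXO proteins, which bind 14-3-3 proteins and leave the nucleus. Phosphatases such as SHIP1 remove the phosphates of PIP3 and so oppose this signal. RNA levels, as measured here, do not report phosphorylation or nuclear position.

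Library totals ran from 3214171 to 12431051 counts in the calcitriol group and from 3618784 to 20258430 in the vehicle group, with a median of 8534490 in the calcitriol group and 7320919 in the vehicle group. The 8 TH2 markers summed to 1220 to 1570 CPM in calcitriol libraries and 1350 to 1690 CPM in vehicle libraries, although Il1rl1 averaged only 0.770 CPM in calcitriol and 0.765 CPM in vehicle libraries. The highest was Cd4, which is not particular to TH2 cells, at 690 CPM in calcitriol and 755 CPM in vehicle libraries. Il13 averaged 203 ± 106 CPM in calcitriol and 333 ± 104 CPM in vehicle libraries. Il4 (96.7 and 86.8 CPM) and Il5 (62.5 and 44.6 CPM) had the higher mean in calcitriol libraries. Summed markers of other cells were low in both groups. In calcitriol libraries they were 1.96 to 6.56 CPM for 6 B cell genes, 4.85 to 11.0 CPM for 9 myeloid and dendritic cell genes, 2.94 to 9.53 CPM for 6 genes of CD8 T and NK cells, and at most 0.856 CPM for 4 mast cell and basophil genes and 0.165 CPM for 5 erythroid genes. In vehicle libraries they were 1.98 to 7.44 CPM for the B cell genes, 7.76 to 10.5 CPM for the myeloid and dendritic cell genes, 3.87 to 8.36 CPM for the CD8 T and NK cell genes, and at most 0.961 CPM for the mast cell and basophil genes and 0.137 CPM for the erythroid genes. Clec9a, Ncr1, Hba-a1, Hba-a2 and Hbb-bt had no count in any library. Replicates 1 and 2 had the lowest scores of their group on the second principal component, in both groups. They lay at -12.44 and -14.33 in the vehicle group and -16.84 and -16.81 in the calcitriol group. Replicates 3 and 4 came next, at -6.501 and -6.56 in the vehicle group and -1.402 and -2.817 in the calcitriol group. All other libraries had positive scores. Xist lay between 208.6 and 321.9 CPM in all 22 libraries and the Y-linked genes at or under 0.140 CPM, a female pattern. The labels name both sexes for the parent mice and give no sex per library.

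Among the members, 4 of 9 passed an adjusted p of 0.05 in edgeR's quasi-likelihood test, all 4 with higher levels in calcitriol libraries, namely Foxo4, Foxo1, Inpp5d and Sgk1. Over all genes tested the same rule called 31.5% in either direction, 16.1% higher and 15.5% lower, and since the members were chosen on this contrast nothing is read from their count. All 9 log2 changes were above 0, with a median of 0.30, and the median over all genes was -0.01. Because of that choice nothing is read from these values either. The log2 changes of Foxo3, Foxp1, Akt1 and Akt2 were no larger than their SE. In bulk RNA of this kind, more RNA per cell and more cells of one kind cannot be told apart.

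**Figure D1:**
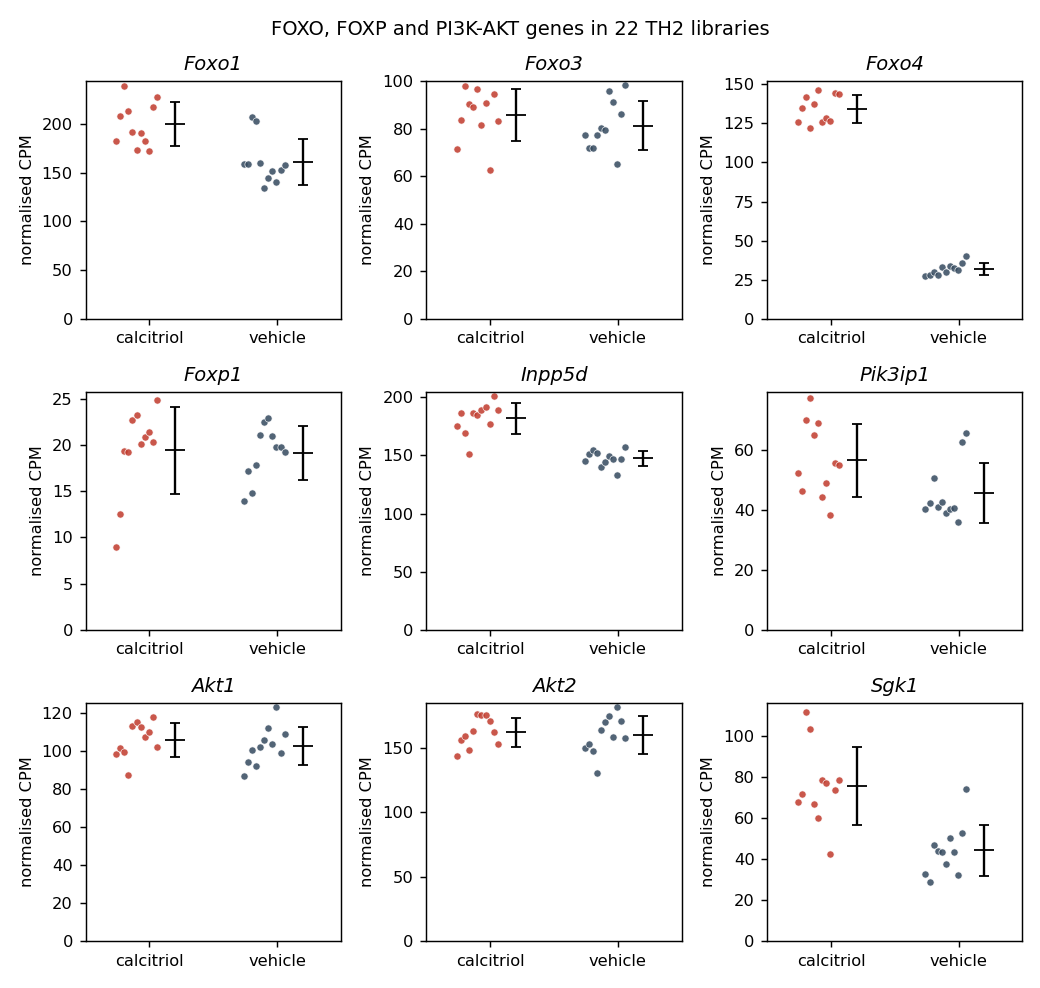
Normalised CPM (y axis, from 0) of the 9 members in 11 calcitriol libraries (red, left) and 11 vehicle libraries (dark blue, right); each point is a library, and the bar beside them is the mean with its SD. The groups do not overlap for Foxo4 and overlap for the other 8 genes.

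Foxo4 (ENSMUSG00000042903, GRCm38 chrX:101254528-101260873, plus strand) encodes a FOXO factor that AKT phosphorylates like its relatives. All gene coordinates are on GRCm38. Its lowest, median and highest values were 122.1, 135.0 and 146.2 CPM in calcitriol libraries and 27.23, 30.94 and 39.87 CPM in vehicle libraries. All 11 calcitriol libraries lay above all vehicle libraries. A full separation of the groups, in either direction, was found in 4.36% of the genes tested and, among the 9 members, in Foxo4 alone. The log2 change was 2.08 ± 0.06 (SE), a 4.23-fold higher level in calcitriol libraries. Of the 11905 genes tested, 53 had a larger positive log2 change. The raw counts behind these levels were 419 to 1737 per calcitriol library and 124 to 732 per vehicle library, so counting error is small beside the difference.

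Foxo1 (ENSMUSG00000044167, chr3:52268336-52353221, plus strand) encodes the FOXO factor best known in T cells, where it drives Il7r and Klf2. Its lowest, median and highest values were 172.1, 192.0 and 238.9 CPM in calcitriol libraries and 134.7, 158.0 and 206.7 CPM in vehicle libraries. Every calcitriol library was above the vehicle median, but only 5 were above all vehicle libraries. Vehicle replicates 3 and 4, at 206.7 and 202.9 CPM, were the vehicle libraries inside the calcitriol range, and the other 9 lay at or below 160.4 CPM. The log2 change was 0.31 ± 0.07. An antisense gene, Gm20402, overlaps 674 exonic bases of Foxo1 but held 23 counts in all libraries together, against 33681 for Foxo1.

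The start region of Foxo1 is shown because Foxo1 is the FOXO gene whose promoter could be read and whose level was higher with calcitriol. It is printed from 250 bases before to 50 bases after the RefSeq start (chr3:52268087-52268386, GRCm38.p6, plus strand, 5′ to 3′). Capitals would mark matches, on either strand, to the FOXO motif GTAAACA, to the shorter forkhead core TAAACA that lies within it, or to a nuclear receptor half-site, and this window has none. The half-site was taken as AGGTCA or one of 3 variants of it, the first being GGGTCA, the next AGTTCA and the last GGTTCA.
Foxo1 promoter: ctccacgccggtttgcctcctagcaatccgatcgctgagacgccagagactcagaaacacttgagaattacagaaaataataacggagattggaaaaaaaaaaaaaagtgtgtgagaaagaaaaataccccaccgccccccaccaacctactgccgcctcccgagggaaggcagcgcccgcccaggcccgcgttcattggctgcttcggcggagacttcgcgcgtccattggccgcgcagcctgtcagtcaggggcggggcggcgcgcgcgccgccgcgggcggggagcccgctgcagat
Among 32851 mouse RefSeq promoters of the same length, 3.65% held the FOXO motif, 13.4% the core and 43.7% a half-site. As background, the vitamin D receptor with its RXR partner binds a pair of such hexamers in one direction with 3 bases between them, an arrangement that 0.0396% of the promoters held. No match says only that these letters are not in this window.

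Foxo3 (ENSMUSG00000048756, chr10:42181841-42276755, minus strand) encodes a FOXO factor known for driving cell death and stress genes. It had 62.58, 89.27 and 98.07 CPM as the lowest, median and highest in calcitriol libraries and 65.12, 79.48 and 98.22 CPM in vehicle libraries. The groups covered nearly the same range, and the log2 change was 0.07 ± 0.08. Calcitriol replicate 9 and vehicle replicate 9 were the lowest of their groups.

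Foxp1 (ENSMUSG00000030067, chr6:98925338-99522721, minus strand) encodes a forkhead factor of another subfamily that keeps naive T cells quiescent and competes with FOXO1 at Il7r. Per length it was the least abundant member, and it had 8.954, 20.31 and 24.94 CPM as the lowest, median and highest in calcitriol libraries and 13.97, 19.82 and 22.92 CPM in vehicle libraries. Calcitriol replicates 1 and 2 were low, at 8.954 and 12.56 CPM, and the other 9 calcitriol libraries lay between 19.26 and 24.94 CPM. Vehicle replicates 1 and 2, at 13.97 and 17.23 CPM, were also in the lower part of their group. The log2 change was 0.04 ± 0.12 over all libraries, and it ran from -0.02 to 0.12 over the alternative analyses. Gm20696 shares 300 exonic bases with Foxp1 on the same strand and held 241 counts against 3722, so a small part of the reads is of uncertain origin.

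Set per length of exon, the FOXO genes changed places. Foxo4 averaged 38.55 ± 2.56 CPM per kb of exon in calcitriol libraries and 9.08 ± 1.08 in vehicle libraries. Foxo1 averaged 23.07 ± 2.60 CPM per kb in calcitriol libraries and 18.57 ± 2.68 in vehicle libraries. Foxo3 averaged 11.31 ± 1.43 CPM per kb in calcitriol libraries and 10.73 ± 1.39 in vehicle libraries. Foxo4 thus made up 52.9 ± 2.23% of the summed level of the 3 genes in calcitriol libraries and 23.7 ± 2.50% in vehicle libraries. Foxo1 made up 31.6 ± 2.15% in calcitriol libraries and 48.3 ± 4.96% in vehicle libraries, and Foxo3 15.5 ± 1.36% in calcitriol libraries and 28.0 ± 3.02% in vehicle libraries. The sum itself was 72.93 ± 5.30 CPM per kb in calcitriol libraries and 38.38 ± 2.98 in vehicle libraries. Foxo6, the remaining FOXO gene, had no count in calcitriol libraries and averaged 0.0245 CPM in vehicle libraries. With the longest transcript as the length in place of all exons, the share of Foxo4 was 54.5 ± 2.21% in calcitriol libraries and 24.8 ± 2.52% in vehicle libraries.

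**Figure D2:**
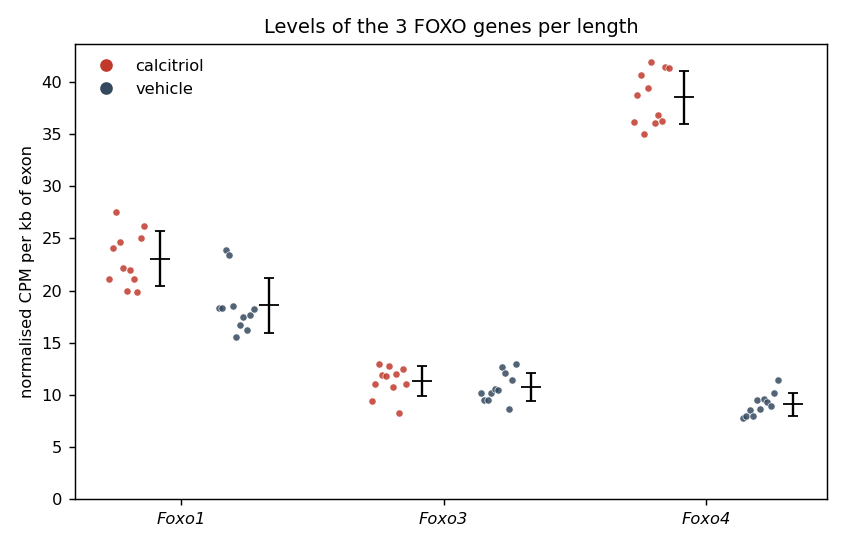
Level per length, in normalised CPM per kb of exon (y axis, from 0), of Foxo1, Foxo3 and Foxo4 in 11 calcitriol libraries (red, left of each pair) and 11 vehicle libraries (dark blue, right); points are libraries and the bars beside them the mean with its SD. In calcitriol libraries Foxo4 averages 38.55, above Foxo1 at 23.07, while in vehicle libraries Foxo4 averages 9.08 and Foxo1 18.57.

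Inpp5d (ENSMUSG00000026288, chr1:87620312-87720507, plus strand) encodes SHIP1, the blood cell phosphatase that removes the 5-phosphate of PIP3. Its lowest, median and highest values were 151.3, 186.2 and 201.0 CPM in calcitriol libraries and 133.4, 147.3 and 157.2 CPM in vehicle libraries. Of the calcitriol libraries, 10 lay above all vehicle libraries, and replicate 4, at 151.3 CPM, did not. The log2 change was 0.30 ± 0.04, with a mean of 181.8 ± 13.3 CPM in calcitriol libraries and 147.4 ± 6.73 CPM in vehicle libraries. The Inpp5d start region (chr1:87620062-87620361, GRCm38.p6, plus strand, from RefSeq) is shown beside that of Foxo1 because the log2 changes of the genes were close, and it too holds no match in capitals.
Inpp5d promoter: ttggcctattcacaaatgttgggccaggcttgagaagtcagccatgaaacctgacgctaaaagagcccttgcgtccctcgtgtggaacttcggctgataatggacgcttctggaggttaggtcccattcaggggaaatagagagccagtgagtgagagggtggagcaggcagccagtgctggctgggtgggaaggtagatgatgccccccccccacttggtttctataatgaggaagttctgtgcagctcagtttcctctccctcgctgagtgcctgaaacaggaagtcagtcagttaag

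Pik3ip1 (ENSMUSG00000034614, chr11:3330401-3342971, plus strand) encodes a membrane protein that binds PI3K and lowers its activity in T cells. It had 38.28, 54.80 and 77.03 CPM as the lowest, median and highest in calcitriol libraries and 36.04, 40.90 and 65.66 CPM in vehicle libraries. The groups overlapped widely, since vehicle replicates 10 and 11, at 62.67 and 65.66 CPM, stood above the rest of their group, and calcitriol replicates 3 to 6 lay between 64.87 and 77.03 CPM. The log2 change was 0.30 ± 0.12. It ran from 0.23 to 0.37 over the alternatives, and 6 of 32 of them placed the gene past the threshold that it missed otherwise. These were DESeq2, 3 surrogate variables, and leaving out calcitriol replicate 7 or 9 or vehicle replicate 10 or 11, and without 1 library the log2 change lay between 0.25 and 0.37.

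Akt1 (ENSMUSG00000001729, chr12:112653821-112674884, minus strand) and Akt2 (ENSMUSG00000004056, chr7:27591552-27640826, plus strand) encode the kinases that phosphorylate FOXO proteins downstream of PIP3. Akt1 had 87.58, 107.6 and 117.8 CPM as the lowest, median and highest in calcitriol libraries and 86.92, 102.2 and 123.3 CPM in vehicle libraries, with a log2 change of 0.05 ± 0.06. Akt2 had 144.0, 162.4 and 176.5 CPM in calcitriol libraries and 130.3, 158.5 and 182.2 CPM in vehicle libraries, with a log2 change of 0.02 ± 0.05. For both kinases the vehicle range enclosed the calcitriol range. Reads of Akt2 could be shared with the pseudogene Akt2-ps on chromosome 11, which held 329 counts over all libraries.

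Sgk1 (ENSMUSG00000019970, chr10:21882184-21999903, plus strand) encodes a kinase related to AKT that PDK1 and mTORC2 activate and that shares FOXO proteins as substrates. Its lowest, median and highest values were 42.42, 73.57 and 111.7 CPM in calcitriol libraries and 28.66, 43.51 and 74.11 CPM in vehicle libraries. Calcitriol replicates 3 and 4, at 111.7 and 103.3 CPM, were the highest, and calcitriol replicate 9, at 42.42 CPM, fell below the vehicle median. Only 5 calcitriol libraries were above all vehicle libraries, because vehicle replicate 11 reached 74.11 CPM. The log2 change was 0.76 ± 0.16, with 339 genes having a larger positive one.

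Start regions were matched for 8 of the 9 members, not for Foxo4, in 19 windows of 300 bases, since several genes have more than 1 start. The FOXO motif was in 1 window, start 2 of Akt1, the forkhead core in 5 windows of 3 members (Foxp1, Akt1 and Akt2), and a half-site in 7 windows of 4 members (Foxp1, Akt1, Akt2 and Sgk1). Over all promoters the shares were 3.65% for the FOXO motif, 13.4% for the core and 43.7% for a half-site. Several of these windows belong to the same gene, and nothing is read from the counts. No window held the hexamer pair with 3 bases between. The windows of Akt1 (start 2, chr12:112674835-112675134, GRCm38.p6, minus strand) and Sgk1 (start 3, chr10:21985854-21986153, GRCm38.p6, plus strand) are shown because they hold, among the members, the FOXO motif and the most half-sites; capitals mark the matches.
Akt1 promoter 2: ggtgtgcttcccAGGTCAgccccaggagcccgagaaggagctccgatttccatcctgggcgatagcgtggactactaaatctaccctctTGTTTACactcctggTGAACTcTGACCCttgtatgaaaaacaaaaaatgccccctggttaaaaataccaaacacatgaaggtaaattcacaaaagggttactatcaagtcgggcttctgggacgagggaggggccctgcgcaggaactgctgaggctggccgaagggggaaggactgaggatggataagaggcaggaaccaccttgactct
Sgk1 promoter 3: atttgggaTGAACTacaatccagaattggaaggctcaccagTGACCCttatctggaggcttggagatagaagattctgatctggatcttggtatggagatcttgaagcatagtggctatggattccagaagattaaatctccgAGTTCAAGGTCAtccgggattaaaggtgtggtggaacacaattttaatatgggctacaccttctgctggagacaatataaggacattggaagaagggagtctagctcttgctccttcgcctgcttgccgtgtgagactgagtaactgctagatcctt
In the Akt1 window the FOXO motif lies on the reverse strand 161 bases before the start. In the Sgk1 window 2 of the 4 half-sites, 107 and 101 bases before the start, stand next to each other in one direction with no base between. Akt1 and Sgk1 are the members with log2 changes of 0.05 and 0.76, and a match is a description of the letters, not a site.

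In order of level per kb of exon, the calcitriol libraries ran from Foxo4 (38.55) through Akt1 (25.86), Inpp5d (23.92), Foxo1 (23.07), Akt2 (22.75), Sgk1 (15.42), Pik3ip1 (13.21) and Foxo3 (11.31) to Foxp1 (1.42 CPM per kb). The vehicle libraries ran from Akt1 (25.04) through Akt2 (22.43), Inpp5d (19.39), Foxo1 (18.57), Foxo3 (10.73), Pik3ip1 (10.65), Foxo4 (9.08) and Sgk1 (8.997) to Foxp1 (1.39 CPM per kb). Foxo4 was thus first of 9 in calcitriol libraries and seventh in vehicle libraries by this length. The gap between neighbours in the order was larger than the sum of their SDs in calcitriol libraries for Foxo4 over Akt1, Akt2 over Sgk1 and Foxo3 over Foxp1. In vehicle libraries it was larger for Akt2 over Inpp5d, Foxo1 over Foxo3 and Sgk1 over Foxp1. No other pair of neighbours differed beyond this spread. The order depends on the length used. Per kb of the longest transcript, Foxo4 was again first in calcitriol libraries, at 42.48 ± 2.82 CPM per kb, but its gap to Akt1, at 39.40 ± 3.34, no longer exceeded the sum of their SDs. Sgk1 (24.42) then stood above Foxo1 (23.07) in calcitriol libraries, and in vehicle libraries Foxo4 was eighth, between 8.613 and 12.61 CPM per kb, its mean below those of Sgk1 (14.25) and Foxo3 (11.87).

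Within the groups the members did not vary as one. After the mean of each group was taken off the log2 CPM values, the 36 pairs of members had a median Pearson r of 0.17 over 22 libraries, and 8 pairs were above 0.5. The highest values were 0.75 for Akt1 with Akt2, 0.71 for Foxo3 with Sgk1 and 0.68 for Pik3ip1 with Sgk1. The lowest was -0.71, for Foxo1 with Akt2. These points share their library and its depth, and the correlation of a member with log2 depth lay between -0.17 and 0.31. Some libraries, such as calcitriol replicates 1 and 2 or vehicle replicates 3 and 4, resembled each other most. The 22 libraries may thus hold fewer independent points.

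The genes most like each member by the same measure were Ecm1 (0.92) and Adamtsl4 (0.88) for Foxo4, Usp18 (0.84) and Ikzf1 (0.83) for Foxo1, Itpkb (0.88) and Galnt6 (0.86) for Foxo3, and Cd27 (0.88) and Nr2c2 (0.87) for Foxp1. For the inhibitors they were Mrtfa (0.79) and Rab19 (0.77) for Inpp5d and Pxmp4 (0.83) and Rnf167 (0.81) for Pik3ip1. For the kinases they were Safb (0.90) and Ccdc88b (0.89) for Akt1, Hsd17b4 (0.85) and Espl1 (0.85) for Akt2, and Cmtm6 (0.89) and Cipc (0.89) for Sgk1. Likeness within the groups did not go with a like difference between them in every case: Usp18 had a log2 change of -1.40 ± 0.27, whereas Foxo1 had 0.31 ± 0.07.

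The genes beside Foxo4 on chromosome X were higher in calcitriol libraries as well. This neighbourhood was looked at after the values were seen. All 8 genes tested within 250 kb of Foxo4 passed the edgeR test with higher levels in calcitriol libraries, against 16.1% of all genes tested. Zmym3, which encodes a zinc finger protein of a chromatin complex, averaged 212.7 ± 13.6 CPM in calcitriol libraries and 92.69 ± 8.24 CPM in vehicle libraries (log2 change 1.20 ± 0.05, adjusted p = 1.47e-16). Il2rg, which encodes the common gamma chain of the receptors for IL-2, IL-4 and IL-7, lies 3.50 kb from Foxo4 and averaged 275.5 ± 17.0 CPM in calcitriol libraries and 175.4 ± 9.24 CPM in vehicle libraries (log2 change 0.65 ± 0.04, adjusted p = 1.96e-12). Med12, a subunit of the Mediator kinase module, averaged 101.0 ± 7.73 CPM in calcitriol libraries and 56.08 ± 5.80 CPM in vehicle libraries (log2 change 0.85 ± 0.06, adjusted p = 4.61e-12). Nono, an RNA-binding protein of paraspeckles, averaged 754.9 ± 36.3 CPM in calcitriol libraries and 518.5 ± 27.4 CPM in vehicle libraries (log2 change 0.54 ± 0.04, adjusted p = 1.11e-11).

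The remaining 4 neighbours of Foxo4 had lower CPM. Their log2 changes were 0.45 ± 0.05 for the sorting nexin Snx12 (adjusted p = 2.94e-08), 0.87 ± 0.15 for Itgb1bp2 (5.21e-05), 0.59 ± 0.16 for the amino acid transporter Slc7a3 (0.00577) and 0.63 ± 0.19 for Gm614 (0.0111), by edgeR. Gm614 lies on the opposite strand 502 bases from Foxo4 and averaged 2.62 ± 0.659 CPM in calcitriol libraries and 1.64 ± 0.611 CPM in vehicle libraries. When libraries that resembled each other most were summed, Gm614 and Slc7a3 missed the threshold (edgeR adjusted p = 0.0647 and 0.0589). Over all alternatives the adjusted p ran from 0.00289 to 0.0647 for Gm614 and from 7.48e-08 to 0.0589 for Slc7a3.

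Farther out the run ended. Dlg3 on one side had a log2 change of 0.06 ± 0.08 (edgeR adjusted p = 0.876) and Taf1 on the other 0.14 ± 0.06 (adjusted p = 0.0645). Cxcr3, a chemokine receptor gene of type 1 T cells, was lower in calcitriol libraries, with a log2 change of -0.63 ± 0.20 (adjusted p = 0.0164). Within 500 kb, 8 of 12 genes were called higher and 1 lower, and within 1000 kb 9 of 19 higher and 2 lower. Elsewhere on chromosome X, beyond 2000 kb, 52 of 355 genes were called higher and 51 lower. In windows of 250 kb on either side of the other members, around Inpp5d 3 of 7 genes were called higher and none lower, around Pik3ip1 2 of 12 higher and 2 lower, around Akt1 1 of 9 lower and around Akt2 1 of 13 higher. Of those called around Inpp5d, Gm25395 and Scarna6 lie within the bounds of Atg16l1, which was not called (log2 change 0.01 ± 0.05, edgeR adjusted p = 0.866). The other was Usp40, 225 kb from Inpp5d. Foxo1 had 1 of 2 neighbours higher, Gm38034 (log2 change 0.47 ± 0.17, edgeR adjusted p = 0.0337). Gm38034 lies inside the Foxo1 gene on the same strand without sharing exonic bases, so the origin of its reads is uncertain. The other, Maml3, was not called (-0.14 ± 0.19, adjusted p = 0.614). Foxo3, Foxp1 and Sgk1 had 3, 1 and 1 neighbours tested with none called. Start regions of 5 of the neighbours of Foxo4 could be read, in 7 windows, and none held the FOXO motif, the forkhead core or the hexamer pair, while those of Il2rg and Nono held a half-site. A half-site was in 43.7% of all promoters searched.

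**Figure D3:**
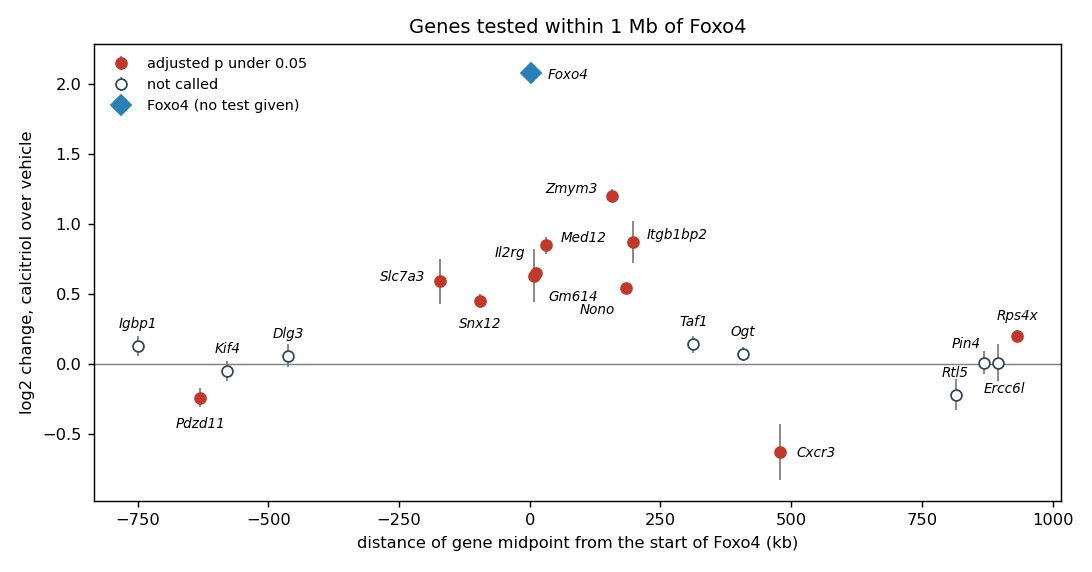
Log2 change of calcitriol over vehicle (y axis, bars are SE) of the genes tested within 1000 kb of Foxo4, by the distance of the middle of the gene from the start of Foxo4 in kb (x axis). Filled red points passed an adjusted p of 0.05, open points did not, and the diamond is Foxo4, at 2.08 and with no test given; the 8 points within 250 kb all lie above 0.

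Upstream of AKT, the genes of PI3K subunits, listed with the PI3K-binding adaptor gene Pik3ap1, moved in both directions. Of these 13 genes tested, 5 rose and 3 fell with calcitriol by edgeR's test, with a median log2 change of 0.01. The calls made up 61.5% of the list, beside 31.5% of all genes tested. This and the following lists were chosen with earlier results of these data known. The gamma class, which signals from G protein-coupled receptors, held the largest differences of the list in each direction. Its adaptor Pik3r6 averaged 10.9 ± 7.83 CPM in calcitriol libraries and 0.891 ± 0.911 CPM in vehicle libraries (log2 change 3.51 ± 0.44, adjusted p = 1.34e-06), and its catalytic gene Pik3cg 52.8 ± 10.6 CPM in calcitriol libraries and 24.6 ± 6.40 CPM in vehicle libraries (1.11 ± 0.13, adjusted p = 5.48e-07). Pik3r6 ran from 0.0 to 2.9 CPM in vehicle libraries and from 4.07 to 30.6 CPM in calcitriol libraries, so the size of its change is less certain. The other gamma adaptor, Pik3r5, fell to 9.38 ± 1.78 CPM in calcitriol libraries, against 14.1 ± 2.19 CPM in vehicle libraries (-0.61 ± 0.10, adjusted p = 2.21e-05). Pik3ca, the alpha catalytic gene, rose by 0.58 ± 0.06 (adjusted p = 4.64e-09), and Pik3r1, which encodes the p85 alpha adaptor, fell by 0.35 ± 0.06 on the log2 scale (adjusted p = 6.38e-05). Pik3ap1, named after its values were seen and not itself a subunit gene, was one of the 3 that fell (-0.54 ± 0.12, adjusted p = 0.000726).

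Among 20 other genes whose products remove PIP3 or its product, or hold back AKT or its signal, 4 rose and 6 fell by the same test, with a median log2 change of -0.02. These calls, 10 of 20 genes tested, were a larger share than the 31.5% called over all genes tested. Dok2, an adaptor that restrains T cell receptor signals, rose by 0.41 ± 0.05 on the log2 scale (edgeR adjusted p = 9.09e-07). In the other direction, Inpp4b, which removes a phosphate from PI(3,4)P2, averaged 205.8 ± 23.4 CPM in calcitriol libraries and 258.8 ± 16.8 CPM in vehicle libraries (-0.33 ± 0.06, adjusted p = 5.66e-05). The pseudokinase gene Trib3 had a log2 change of -0.73 ± 0.13 (adjusted p = 0.000169) and the PP2A catalytic gene Ppp2cb one of -0.22 ± 0.04 (adjusted p = 0.000165).

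The kinases and complexes around AKT, apart from the members, gave few calls, 9.09% of those tested beside 31.5% of all genes tested. Sgk1, a member, is itself an AGC kinase with a log2 change of 0.76. Of 11 other genes of AGC kinases, mTOR complexes and GSK3 tested, none rose and 1 fell, the mTOR subunit Mlst8 (log2 change -0.23 ± 0.08, edgeR adjusted p = 0.0294), a call lost in 9 of 32 alternatives. Without replicates 1 and 2 of both groups Mlst8 was not called, and 1 gene of the list was called higher and none lower. The 5 of these that left out 1 library were those without calcitriol replicate 7 or 9 or vehicle replicate 1, 3 or 11 (adjusted p = 0.0508 to 0.0608). Pdpk1, which encodes PDK1, averaged 172.5 ± 17.5 CPM in calcitriol libraries and 168.9 ± 7.44 CPM in vehicle libraries (0.03 ± 0.05, adjusted p = 0.670). Of 8 other forkhead genes tested, 1 fell, Foxk2 (-0.19 ± 0.06, edgeR adjusted p = 0.0174), a call lost with resembling libraries summed (adjusted p = 0.0672). The forkhead list had 12.5% called and a median log2 change of -0.15.

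Of 18 genes whose products bind, export or modify FOXO proteins, 2 rose and 3 fell, with a median log2 change of -0.06. The share called was 27.8%, near the 31.5% of all genes tested. The methyltransferase gene Prmt1 fell by 0.45 ± 0.08 on the log2 scale (edgeR adjusted p = 3.4e-05). The 14-3-3 genes Ywhag and Ywhaq had log2 changes of -0.20 ± 0.05 (adjusted p = 0.00488) and -0.23 ± 0.07 (adjusted p = 0.0171). The call of Ywhag was lost with resembling libraries summed (adjusted p = 0.0608) and that of Ywhaq without replicates 1 and 2 of both groups (adjusted p = 0.0545). The acetyltransferase gene Crebbp rose by 0.28 ± 0.06 (adjusted p = 0.000377), and Stk4, which encodes the kinase MST1, by 0.16 ± 0.06 (adjusted p = 0.0344), a call lost in 10 of 32 alternatives. Of these, 9 left out 1 library, namely vehicle replicate 2, 6, 7, 8 or 11 or calcitriol replicate 5, 6, 7 or 9 (adjusted p = 0.0503 to 0.0664).

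Genes known as FOXO targets in T cells did not move one way. Of 10 tested, 4 rose and 3 fell, and the median log2 change was -0.12. The share called was 70.0%, beside 31.5% of all genes tested. Ctla4, the inhibitory receptor gene, averaged 1439 ± 130 CPM in calcitriol libraries and 609.2 ± 114 CPM in vehicle libraries (log2 change 1.24 ± 0.09, edgeR adjusted p = 6.29e-11). Klf2, a factor of T cell trafficking, was low, at 5.87 ± 2.11 CPM in calcitriol libraries and 3.13 ± 1.10 CPM in vehicle libraries (0.86 ± 0.22, adjusted p = 0.00311). The interleukin 7 receptor gene Il7r averaged 102.6 ± 13.3 CPM in calcitriol libraries and 84.8 ± 18.5 CPM in vehicle libraries (0.28 ± 0.10, adjusted p = 0.037), a call lost in 12 of 32 alternatives. Of these, 9 left out 1 library, namely vehicle replicate 5, 6, 7, 8 or 9 or calcitriol replicate 7, 8, 10 or 11 (adjusted p = 0.052 to 0.0749). The lymph node homing receptor gene Ccr7 fell to 63.1 ± 24.3 CPM in calcitriol libraries, against 119.5 ± 25.4 CPM in vehicle libraries (-0.94 ± 0.18, adjusted p = 0.000345). Tcf7 and Bach2, factors of memory and stem-like T cells, had log2 changes of -0.67 ± 0.16 (adjusted p = 0.00205) and -0.38 ± 0.11 (adjusted p = 0.00619). S1pr1, also a trafficking gene, did not pass, at -0.47 ± 0.34 (adjusted p = 0.325).

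Among 25 FOXO targets known from many cell types, 8 rose and 7 fell, with a median log2 change of 0.11. The share called was 60.0%, beside 31.5% of all genes tested. Bcl2l11, which encodes the death inducer BIM, averaged 59.7 ± 11.9 CPM in calcitriol libraries and 27.5 ± 4.39 CPM in vehicle libraries (log2 change 1.12 ± 0.11, edgeR adjusted p = 5.33e-09). Sesn3, a sestrin that restrains mTORC1, averaged 228.7 ± 35.2 CPM in calcitriol libraries and 115.1 ± 14.7 CPM in vehicle libraries (0.99 ± 0.08, adjusted p = 2.21e-10). Rbl2, the pocket protein p130 of quiescent cells, rose by 0.53 ± 0.05 (adjusted p = 1.07e-08). Against these, the death ligand genes Fasl and Tnfsf10 were lower in calcitriol libraries. Fasl averaged 0.746 ± 0.808 CPM in calcitriol libraries and 5.16 ± 2.56 CPM in vehicle libraries (-2.96 ± 0.39, adjusted p = 1.48e-06), and Tnfsf10 10.5 ± 1.86 CPM in calcitriol libraries and 19.8 ± 5.82 CPM in vehicle libraries (-0.91 ± 0.13, adjusted p = 4.2e-06). Cdkn1b, the cell cycle inhibitor p27, did not pass, at 147.3 ± 23.3 CPM in calcitriol libraries and 151.4 ± 21.8 CPM in vehicle libraries (-0.04 ± 0.09, adjusted p = 0.781). The other genes called, chosen for mention after their values were seen, were Gadd45a, Txnip, Map1lc3b, Bnip3l and Pink1 among those that rose and Cdkn1a, Sod2, Sesn2, Irs2 and Gabarapl1 among those that fell.

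**Figure D4:**
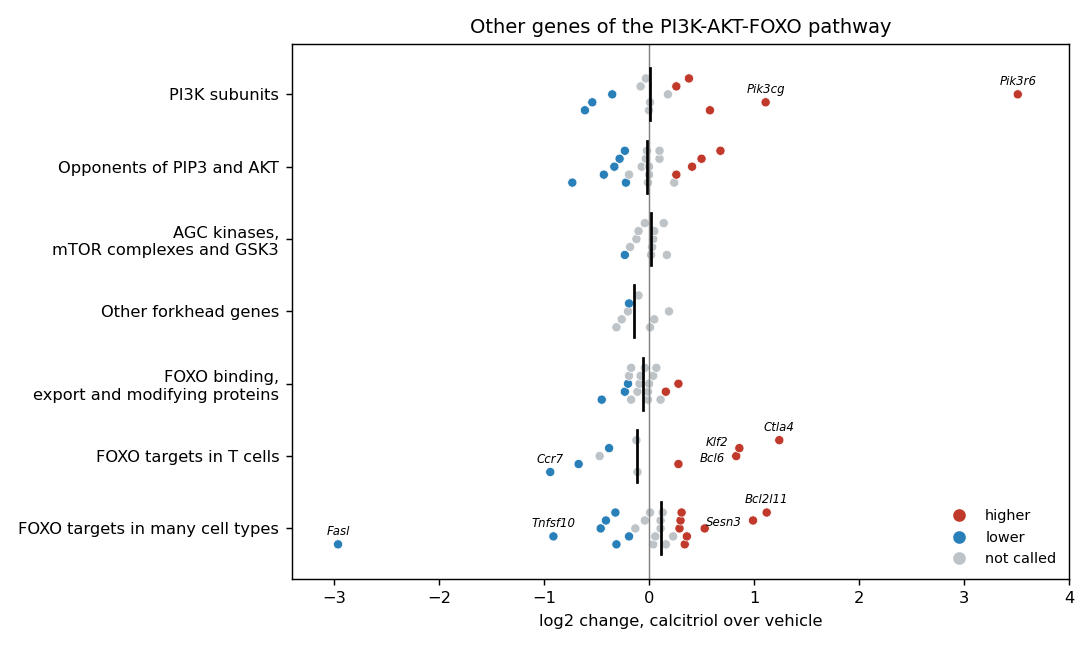
Log2 change of calcitriol over vehicle (x axis) of the tested genes of 7 lists of the pathway (rows), without the 9 members; the PI3K row includes the adaptor gene Pik3ap1, red points rose, blue points fell and grey points were not called at an adjusted p of 0.05, and the black line is the median of the list. The medians lie between -0.15 and 0.11, and genes with log2 changes past 0.8 in size are named.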

How the data were processed

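RNA of 22 mouse TH2 libraries was sequenced with a stranded total RNA kit, per the labels' protocols. The authors deposited raw counts per Ensembl gene. The submitters' processing notes name GRCm38 as the build, and HTSeq 0.13.5 and STAR 2.7.10a as tools. What each tool did, whether counting used strand and which annotation it used is not given in the sources used here, so reads of overlapping or antisense genes cannot be told apart with certainty. Symbols, exon lengths and coordinates came from GENCODE M21 on the same build (259 identifiers had no symbol), and start regions from RefSeq (GRCm38.p6).

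The members and lists were chosen with earlier results of these data known. The filterByExpr function (edgeR 4.0.16 in R 4.3.3) kept 11905 genes, holding at least 99.7% of any library's counts. After TMM scaling the groups were compared with edgeR's quasi-likelihood F test (robust, no covariate), Benjamini-Hochberg adjusted over all genes tested, threshold 0.05. The code was tested on simulated data. Levels are mean ± SD of CPM over 11 libraries, and log2 changes are calcitriol over vehicle ± SE. CPM per kb divides by the union of the exons of a gene. Correlations used log2 CPM with a prior count of 2. Genes named in the text are the 9 members, up to 5 called genes with the smallest p and a mean of at least 1 CPM in each list, 11 pathway genes named in every case (some of them are not reported here), and the 2 protein-coding genes most correlated with each member. Alternatives were other scalings, filters and tests (DESeq2 1.42.0, limma-voom 3.58.1), added covariates (sva 3.50.0) and libraries left out or summed.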

Additional observations from a re-analysis of the deposited data

How the results depend on the processing

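Over 32 alternatives the count of genes called ran from 2881 to 4922 (3467 to 3806 with 1 library left out), and that of members called was 4 or 5. Foxo4, Foxo1, Inpp5d and Sgk1 were past the threshold in all 32, and the log2 changes of the 9 members moved by less than the spread between libraries in each. The alternatives use the same libraries and contrast on which the members were chosen, so this describes stability and adds no support. Lists with few calls were less stable. For the AGC kinases, mTOR complexes and GSK3, 1 gene was called, and 0 with no filter on low counts, 0 with a covariate of sex-linked expression, 3 with 3 surrogate variables, 0 with resembling libraries summed, 1 higher in place of 1 lower without replicates 1 and 2 of both groups, and 0 to 2 with 1 library left out (0 without calcitriol replicate 7 or 9 or vehicle replicate 1, 3 or 11, 2 without calcitriol replicate 2 or 6). For the other forkhead genes, 1 was called, and 2 with upper quartile scaling, 4 with 3 surrogate variables, 2 without replicates 1 and 2 of both groups, 0 with libraries summed, and 1 to 3 with 1 library left out (2 or 3 without calcitriol replicate 1, 3, 10 or 11 or any of vehicle replicates 2, 4, 5, 9 and 10). For the FOXO binding, export and modifying proteins, 5 were called and 3 with libraries summed. With libraries summed the edgeR adjusted p was 0.0672 for Foxk2, 0.0608 for Ywhag and 0.161 for Il7r, against ranges over all alternatives of 0.00105 to 0.0672, 0.000664 to 0.0608 and 0.00521 to 0.161. Ywhaq had 0.0545 without replicates 1 and 2 of both groups, in a range of 0.00251 to 0.0545. Summing leaves fewer samples, and for the other changes the cause was not tested. All libraries had Xist and almost no Y-linked counts, so the covariate of sex-linked expression cannot show a dependence on sex. The windows around Foxo4 and the longest transcript as length were chosen after seeing the data. No paired analysis was run, because the labels carry no replicate numbers and name no mouse or culture per library. The replicate numbers used here follow the order of the samples. Depth limits the least abundant genes, such as Fasl, Klf2, Gm614 and Pik3r6, most.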
